A study of Mus musculus with 17 samples.

Results

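Effector differentiation transcription factors of CD8+ T cells are described here through 10 listed genes: Tbx21, Eomes, Prdm1, Bhlhe40, Id2, Id3, Runx3, Irf4, Irf8 and Batf. The genes were listed by name for their known roles in effector and memory fate. Symbols were matched to the Ensembl identifiers of 53679 genes in the count tables, and all 10 were found. All 10 also passed the filter on low counts, among 16246 genes tested.

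The values were read counts from RNA sequencing of 17 libraries, made from CD8+ T cells of C57BL/6 mice that the labels give as highly pure. They carried either the wild type (WT) or the knockout (KO) genotype of Cblb, whose product Cbl-b is a ubiquitin ligase that dampens signals of the T cell receptor. The 6 groups were WT and KO cells that were unstimulated, WT and KO cells given anti-CD3 in 12 h stimulations, and WT and KO cells given anti-CD3 with anti-CD28 in stimulations of the same length. Anti-CD3 engages the T cell receptor complex and anti-CD28 adds costimulation, and the study concerns the overproduction of interferon-gamma by cells without Cbl-b. The sample titles give no time for the unstimulated cells. In comparisons with them, an effect of the antibodies and one of time in culture cannot be told apart. Each group had 3 libraries, except WT cells given both antibodies, which had 2 (replicates 2 and 3). The labels do not give the age of the mice, how the KO was made or whether replicates came from separate animals. P-values therefore measure only how far these samples spread, and that spread may be technical. Levels below are CPM, the count of a gene scaled to a common library total after adjustment by the trimmed mean of M values (TMM).

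T cell receptor signalling switches on the AP-1 partner BATF and the interferon regulatory factors, which bind composite sites together and open the effector programme. The T-box factors T-bet (Tbx21) and Eomesodermin (Eomes), with RUNX3, drive the genes of cytotoxic function and interferon-gamma. Blimp-1 (Prdm1) and BHLHE40 act in effector and tissue-resident cells. ID2 and ID3 bind E proteins and block their activity, ID2 being tied to effector and ID3 to memory precursor cells.

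Total counts per library were 16635826 to 38269033, apart from 160059285 in KO unstimulated replicate 2. Cblb transcript was present in KO libraries at 63.9 to 95.9 CPM, below the 139.5 to 190.1 CPM of WT libraries in every case. Libraries differed in how GC-rich genes stood against GC-poor genes, given here as a GC tilt. For each gene the log2 deviation of the library from the mean over all libraries was taken, and the tilt is the median over GC-rich genes (56% GC or more) less the median over GC-poor genes (40% or less). KO unstimulated replicate 2 had the highest tilt, 1.14, and the lowest, -1.15, was that of KO both-antibody replicate 3, while the others lay between -0.74 and 0.56. Within each state the tilts of KO and WT libraries did not overlap. KO libraries were the more GC-rich when unstimulated (0.17 to 1.14 against -0.74 to -0.31) and with anti-CD3 (0.10 to 0.25 against -0.41 to -0.12), and the less GC-rich with both antibodies (-1.15 to 0.35 against 0.52 to 0.56). The GC content of the transcripts described here ran from 45.1% (Id2) to 59.3% (Tbx21), against a median of 48.7% over all genes tested, and Tbx21 was more GC-rich than 95.7% of them. Where a fit corrected for the GC trend of each library ended or added a call of a member, its value is given beside the result. All 6 CD8 T cell markers were detected in every group. Their summed level was 3050 to 3360 CPM in unstimulated and 1710 to 1910 CPM in stimulated libraries. Because the RNA is from bulk cells, fewer cells of a type and less RNA per cell cannot be told apart.

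Promoter sequences of Irf8, Eomes and Tbx21 are shown, as the DNA in front of the genes the results turn on. All 3 were called higher in KO than in WT cells in each state, although with the GC correction the unstimulated calls of Eomes and Tbx21 were lost. They are RefSeq windows of build GRCm38.p6, each of 250 bases ending just before the annotated start, written 5′ to 3′ on the gene's strand. The Irf8 window is chr8:120736108-120736357 (plus strand), the Eomes window chr9:118477939-118478188 (plus strand) and the Tbx21 window chr11:97115332-97115581 (minus strand). Capitals mark the STAT motif in Irf8 and the IRF motif in Eomes.
Irf8: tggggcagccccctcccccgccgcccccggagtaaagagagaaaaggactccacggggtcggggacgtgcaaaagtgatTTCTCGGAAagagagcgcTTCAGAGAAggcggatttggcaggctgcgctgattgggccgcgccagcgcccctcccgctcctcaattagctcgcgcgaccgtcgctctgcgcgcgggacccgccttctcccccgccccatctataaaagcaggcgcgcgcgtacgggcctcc
Eomes: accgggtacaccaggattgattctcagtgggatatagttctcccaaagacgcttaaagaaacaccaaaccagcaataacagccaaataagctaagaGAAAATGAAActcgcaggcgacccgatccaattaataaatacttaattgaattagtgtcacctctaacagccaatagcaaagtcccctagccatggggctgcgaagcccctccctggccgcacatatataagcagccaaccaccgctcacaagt
Tbx21: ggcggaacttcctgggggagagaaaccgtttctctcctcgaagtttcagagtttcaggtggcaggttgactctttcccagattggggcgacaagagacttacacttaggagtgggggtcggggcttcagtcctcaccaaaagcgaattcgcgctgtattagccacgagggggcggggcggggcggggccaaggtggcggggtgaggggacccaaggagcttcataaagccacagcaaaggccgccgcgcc

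The motifs searched, on both strands, were AP-1 (TGANTCA), STAT (TTCNNNGAA), NFAT (TGGAAA), T-box (TCACAC), RUNX (TGTGGT), E-box (CACGTG), the kappaB motif and an IRF motif of 2 copies of GAAA with 2 bases between them. The Irf8 window shown held the STAT motif at positions -171 and -153 from the start, and 7.02% of 32851 promoter windows held it. The Eomes window held the IRF motif at -154, a motif found in 2.98% of windows. The Tbx21 window held none of the 8 motifs. Among the other members, Prdm1 held the AP-1 motif at -48 (6.75% of windows), and Runx3 (-134 and -126) and Batf (-149 and -56) held the RUNX motif (14% of windows). Irf8 and Runx3 each had a second window, starting at chr8:120738389 and chr4:135152295, and neither of these held any of the 8 motifs. No windows were matched for Bhlhe40. A match is a match of letters in this window and no more.

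Levels between genes were compared per kilobase of exon. In unstimulated cells Id2 was the highest of the 10, at 31.6 CPM per kb in WT and 30.1 in KO cells, followed by Eomes at 15.1 and 21.3. Irf4 and Irf8 were among the lowest, at 1.92 and 0.605 CPM per kb in WT cells. After stimulation Irf4 was the highest in all 4 groups, at 42.0 to 75.7 CPM per kb, and Prdm1 was the lowest in all 4, at 0.413 to 0.65. In KO cells given anti-CD3, Tbx21 and Irf8 stood level at 17.3 CPM per kb each, against 6.93 and 5.21 in the WT cells.

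**Figure D1:**
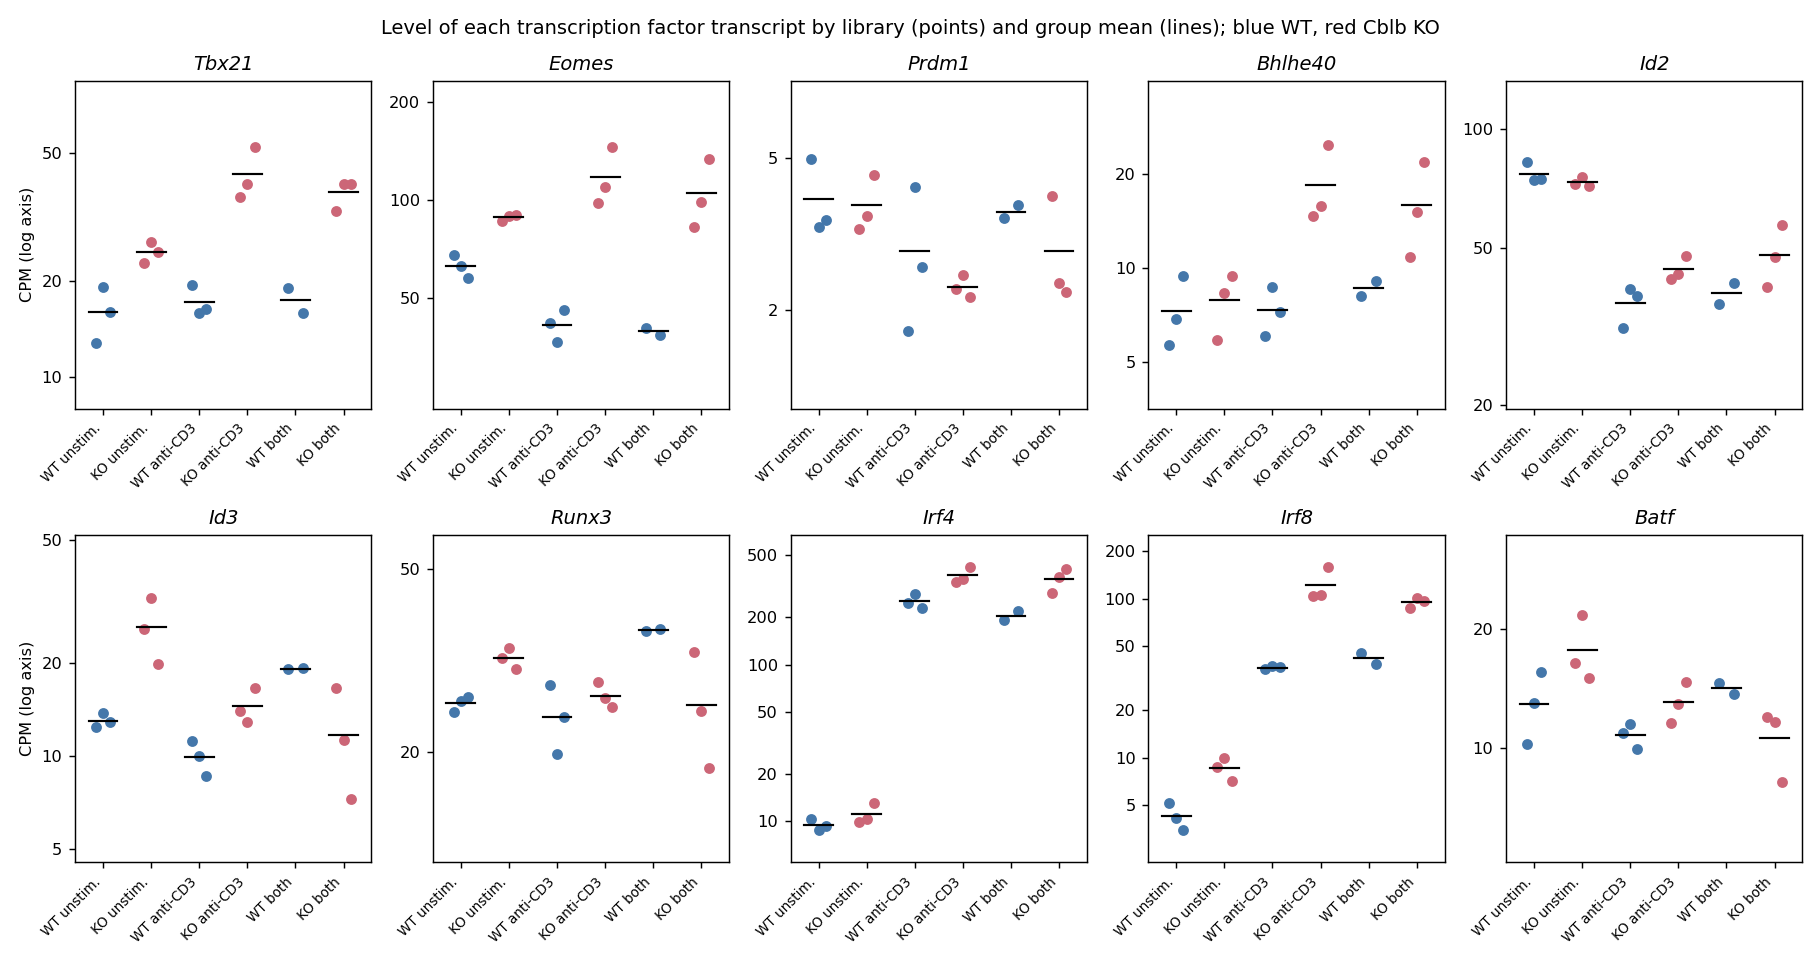
CPM of each of the 10 transcripts (log axis) in every library (points) and group mean (lines), WT in blue and KO in red. Irf4 and Irf8 are higher in every stimulated library than in any unstimulated one, and in Tbx21, Eomes and Irf8 the KO libraries lie above the WT libraries of the same state.

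KO and WT cells were compared in each state. In unstimulated cells 4 of the 10 members were higher in KO cells (Tbx21, Eomes, Id3 and Irf8) and none was lower, by edgeR's quasi-likelihood test with Benjamini-Hochberg adjustment over all genes tested, at a threshold of 0.05. Of all genes tested, 25.4% were called in either direction there, 15.3% higher and 10.1% lower. With the correction for GC trends, Id3 and Irf8 kept their calls and Tbx21 and Eomes did not, where calls over all genes fell from 4134 to 1145. With anti-CD3, 5 members were higher (Tbx21, Eomes, Bhlhe40, Irf4 and Irf8) and none lower, where 15.3% of all genes were called, 10.5% higher and 4.8% lower. With both antibodies, 4 were higher (Tbx21, Eomes, Irf4 and Irf8) and 1 was lower (Runx3), where 16.1% of all genes were called, 9.84% higher and 6.3% lower. A fit of the 5 libraries given both antibodies alone called none of the 10 (adjusted p = 0.197 to 0.262 for those 5 members). It called no gene at all, so its lack of calls is not particular to the members. The fit without WT both-antibody replicate 3 leaves 1 library in that group, and its values for the 4 higher members are given below. The median log2 difference over the 10 members was 0.40, 0.55 and 0.55 in the 3 states, and that over all genes was -0.011, 0.037 and 0.000.

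**Figure D2:**
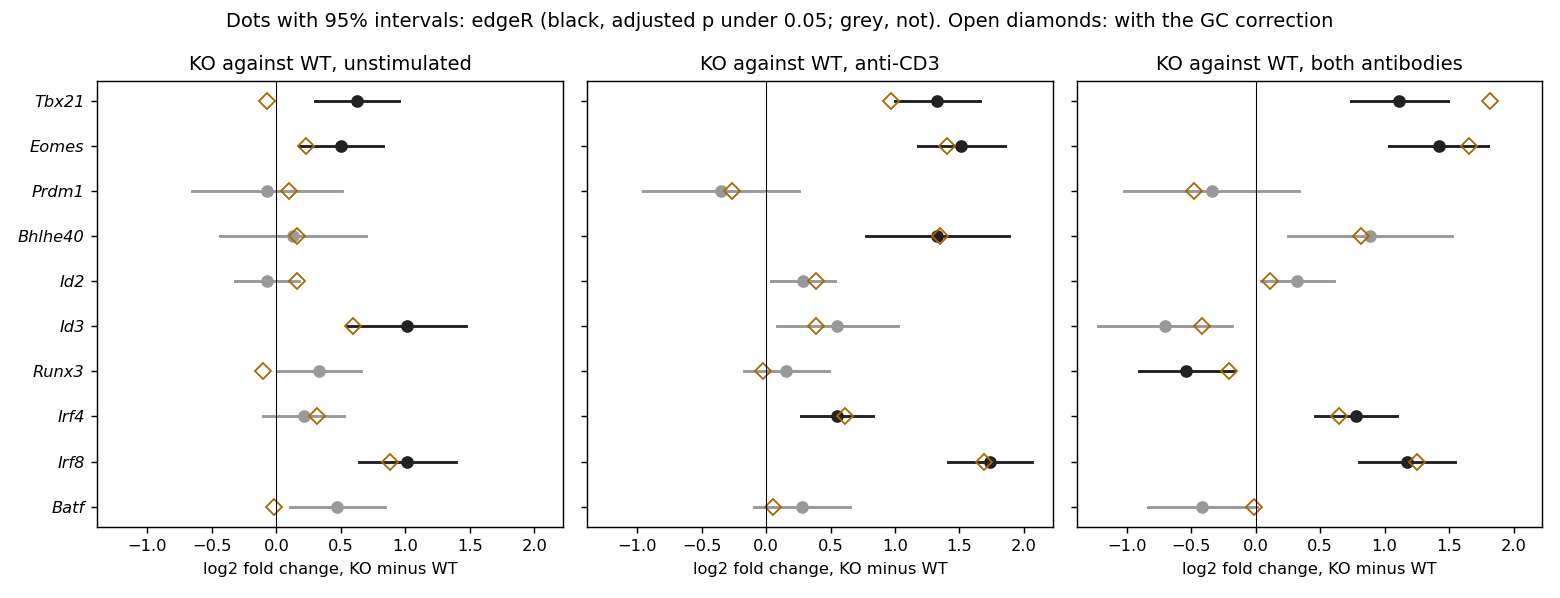
Log2 fold change of KO over WT for each member in the 3 states (dots with 95% intervals, black where the adjusted p was under 0.05), with the value after GC correction as open diamonds. Irf8 and Eomes lie right of 0 in all 3 panels, while the Tbx21 diamond moves to -0.074 in unstimulated cells and to 1.82 with both antibodies.

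Stimulation was compared with the unstimulated state in each genotype. With anti-CD3, 2 members rose and 2 fell in WT cells (24.4% of all genes called, 11.3% higher and 13.1% lower), and 5 rose and 2 fell in KO cells (36.9% called, 19.6% higher and 17.3% lower). With both antibodies, 3 rose and 2 fell in WT cells (34.1% called, 17.8% higher and 16.3% lower), and 4 rose and 3 fell in KO cells (45.4% called, 23.0% higher and 22.5% lower). Irf4 and Irf8 rose and Id2 fell in all 4 of these comparisons. The comparisons of KO with WT cells and of stimulated with unstimulated cells share groups, so their counts are not independent of each other.

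**Figure D3:**
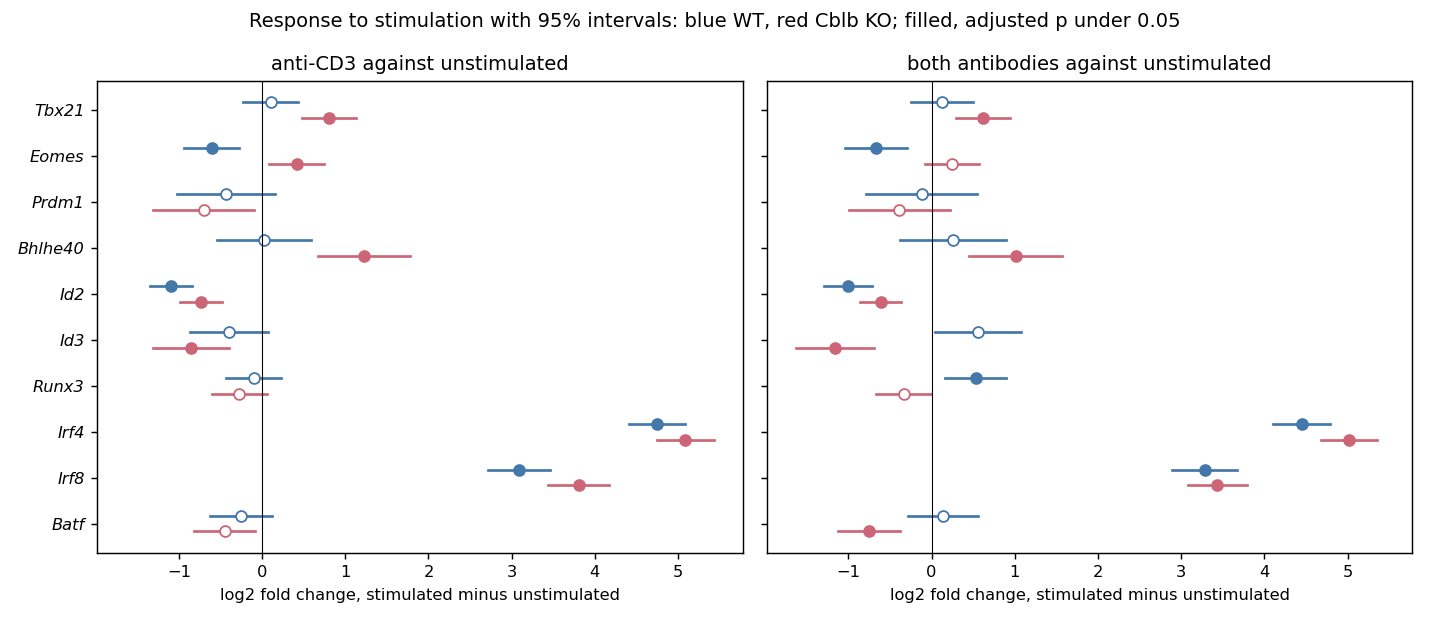
Log2 fold change of stimulated over unstimulated cells for each member, with 95% intervals, in WT (blue) and KO (red) cells, filled where the adjusted p was under 0.05. Irf4 and Irf8 lie between 3.09 and 5.09, Id2 lies below 0 in both genotypes, and Eomes lies below 0 in WT and above 0 in KO cells.

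Interferon regulatory factors came first in size. Irf8 encodes a factor known from myeloid and B cells that is also induced in CD8+ T cells by receptor and cytokine signals. It lies on chromosome 8 (120736358 to 120756694, plus strand, GRCm38). In unstimulated cells Irf8 was at 5.15, 4.14 and 3.51 CPM in the 3 WT libraries and at 8.76, 9.9 and 7.11 CPM in the 3 KO libraries. With anti-CD3 it was at 35.8, 37.6 and 36.9 CPM in WT and 104, 105 and 158 CPM in KO libraries. With both antibodies it was at 45.3 and 38.9 CPM in the 2 WT libraries and 87.7, 101 and 96.2 CPM in the KO libraries. Every KO library lay above every WT library of its state, and every stimulated library above every unstimulated one.

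The difference between KO and WT cells in Irf8 was 2.02-fold in unstimulated cells (log2 fold change 1.02 ± 0.18 (SE), adjusted p = 0.00467), 3.33-fold with anti-CD3 (log2 fold change 1.73 ± 0.155 (SE), adjusted p = 8.17e-06) and 2.25-fold with both antibodies (log2 fold change 1.17 ± 0.18 (SE), adjusted p = 0.00215). These calls held with the GC correction, at 0.88 (adjusted p = 0.0132), 1.69 (adjusted p = 3.18e-06) and 1.25 (adjusted p = 3.88e-04). The call with both antibodies was lost without WT both-antibody replicate 3, at 1.07 (adjusted p = 0.0706). Irf8 rose with anti-CD3 by a log2 fold change of 3.09 ± 0.18 (adjusted p = 9.39e-10) in WT and 3.8 ± 0.17 (adjusted p = 3.20e-11) in KO cells. With both antibodies it rose by 3.28 ± 0.19 (adjusted p = 1.37e-09) and 3.44 ± 0.17 (adjusted p = 1.22e-10). The responses of the genotypes were not shown to differ, with a difference of 0.72 ± 0.235 (adjusted p = 0.204) for anti-CD3 and 0.16 ± 0.25 (adjusted p = 0.659) for both antibodies. A predicted protein-coding gene on the same strand, Gm20388, overlaps Irf8 without sharing exon bases and held 682 to 17570 reads per library, so the division of reads between them is uncertain.

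Since Irf8 is also a gene of dendritic cells, macrophages and B cells, the markers of those cells were read beside it. The 6 dendritic cell markers summed to 14.7 to 20.4 CPM in unstimulated and 15.9 to 20.6 CPM in stimulated libraries, most of it from Zbtb46 and Itgax. Clec9a, which defines a dendritic cell subset, had no read in 5 of the 6 groups and at most 1 read in a library of the KO anti-CD3 group. Xcr1, from the same list, was detected in every group, at 0.727 to 2.26 CPM. The 6 macrophage or monocyte markers summed to at most 3.3 CPM in any library. The 6 B cell markers summed to 303 to 435 CPM in unstimulated and 158 to 273 CPM in stimulated libraries, nearly all of it from Ighm (153 to 411 CPM), while Pax5 reached at most 0.832 CPM. Cd79b was at 15.3 to 23.9 CPM in unstimulated and 3.93 to 7.63 CPM in stimulated libraries. The B cell sum of every stimulated library lay below that of every unstimulated one, while the dendritic cell sums overlapped. Within the dendritic cell list, 2 genes moved in opposite directions without overlap. Zbtb46 was at 6.46 to 8.67 CPM in unstimulated and 12.1 to 16.4 CPM in stimulated libraries, and Itgax at 4.64 to 9.57 and 1.83 to 4.01 CPM. By genotype, unstimulated KO libraries held the larger B cell sums (364 to 435 CPM, WT 303 to 355). They also held more Cd79b (18.1 to 23.9, WT 15.3 to 16.6) and Itgax (7.3 to 9.57, WT 4.64 to 6.31). The dendritic cell sums of the genotypes overlapped there. With anti-CD3, KO libraries held the smaller B cell sums (196 to 222, WT 235 to 267). The same held with both antibodies (158 to 231, WT 259 to 273). Any bearing of these cells on Irf8 was not tested.

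Irf4 encodes the interferon regulatory factor that pairs with BATF and scales with receptor signal strength. It lies on chromosome 13 (30749226 to 30766976, plus strand). In unstimulated cells it was at 10.3, 8.71 and 9.22 CPM in WT and 9.88, 10.2 and 12.9 CPM in KO libraries, with overlapping ranges. Under anti-CD3 the level was 246, 283 and 231 CPM in WT and 340, 352 and 423 CPM in KO libraries. Under both antibodies the level was 192 and 220 CPM in WT and 287, 362 and 411 CPM in KO libraries. In both stimulated states the KO libraries lay above all WT libraries.

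Irf4 rose 26.9-fold with anti-CD3 in WT (log2 fold change 4.75 ± 0.16 (SE), adjusted p = 7.18e-13) and 34.0-fold in KO cells (log2 fold change 5.09 ± 0.16 (SE), adjusted p = 2.26e-13). With both antibodies it rose 21.8-fold in WT (log2 fold change 4.45 ± 0.16 (SE), adjusted p = 3.42e-12) and 32.4-fold in KO cells (log2 fold change 5.02 ± 0.16 (SE), adjusted p = 3.48e-13). KO exceeded WT cells by 1.47-fold with anti-CD3 (log2 fold change 0.55 ± 0.13 (SE), adjusted p = 0.00988) and by 1.72-fold with both antibodies (log2 fold change 0.78 ± 0.15 (SE), adjusted p = 0.00517), and the unstimulated difference of 0.21 ± 0.15 (adjusted p = 0.308) was not called. The anti-CD3 call was lost without KO anti-CD3 replicate 3, at 0.45 (adjusted p = 0.0799), or WT anti-CD3 replicate 3, at 0.49 (adjusted p = 0.059). The both-antibody call was lost without WT both-antibody replicate 2, at 0.67 (adjusted p = 0.1), or replicate 3, at 0.88 (adjusted p = 0.0733).

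Batf encodes the AP-1 family partner of IRF4 and lies on chromosome 12 (85686669 to 85709087, plus strand). Unlike Irf4 it did not rise in any comparison with unstimulated cells. It was at 10.2, 13 and 15.6 CPM in WT and 16.3, 21.6 and 15 CPM in KO unstimulated libraries, at 10.9, 11.5 and 9.94 and 11.5, 12.9 and 14.7 CPM with anti-CD3, and at 14.6 and 13.7 and 11.9, 11.6 and 8.2 CPM with both antibodies. Batf fell in KO cells given both antibodies (log2 fold change -0.75 ± 0.18 (SE), adjusted p = 0.00267), where the 3 stimulated libraries lay below the 3 unstimulated ones. That call was lost with the GC correction, at -0.27 (adjusted p = 0.077), and without the 2 libraries of strongest tilt, at -0.43 (adjusted p = 0.0651). No difference between KO and WT cells was called, with values of 0.47 ± 0.175 (adjusted p = 0.0557), 0.28 ± 0.18 (adjusted p = 0.306) and -0.42 ± 0.2 (adjusted p = 0.156) in the 3 states.

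The genes of the T-box factors were higher in KO than in WT cells in all 3 states, although for Tbx21 the unstimulated difference turned with the GC correction. Tbx21, on chromosome 11 (97098071 to 97115331, minus strand), encodes T-bet, the activator of Ifng and of terminal effector genes. It was at 12.8, 19.2 and 16 CPM in WT and 22.7, 26.4 and 24.6 CPM in KO unstimulated libraries. Anti-CD3 libraries held 19.5, 15.9 and 16.3 CPM in WT and 36.6, 40.1 and 52.4 CPM in KO libraries. Libraries given both antibodies held 19 and 15.9 CPM in WT and 33.1, 40.03 and 40.1 CPM in KO libraries. The KO libraries lay above all WT libraries of the same state, and the WT libraries overlapped across all 3 states.

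Tbx21 was 1.54-fold higher in unstimulated KO cells (log2 fold change 0.63 ± 0.16 (SE), adjusted p = 0.0123), 2.51-fold higher with anti-CD3 (log2 fold change 1.33 ± 0.155 (SE), adjusted p = 7.04e-05) and 2.17-fold higher with both antibodies (log2 fold change 1.12 ± 0.18 (SE), adjusted p = 0.00259). With the GC correction the unstimulated difference was -0.074 (adjusted p = 0.908), so its direction turned, while the stimulated ones were 0.97 (adjusted p = 0.0153) and 1.82 (adjusted p = 0.00212). The unstimulated call was also lost without KO unstimulated replicate 2, at 0.57 (adjusted p = 0.0749), or WT unstimulated replicate 1, at 0.48 (adjusted p = 0.0725), and the both-antibody call without WT both-antibody replicate 3, at 1 (adjusted p = 0.0747). In KO cells Tbx21 rose with anti-CD3 (log2 fold change 0.81 ± 0.15 (SE), adjusted p = 5.10e-04) and with both antibodies (log2 fold change 0.61 ± 0.15 (SE), adjusted p = 0.00386). In WT cells the changes were 0.11 ± 0.16 (adjusted p = 0.684) and 0.13 ± 0.18 (adjusted p = 0.611). The both-antibody change with the GC correction was 1.31 (adjusted p = 0.00109) in KO and -0.58 (adjusted p = 0.16) in WT cells. The difference between these responses was 0.7 ± 0.22 (adjusted p = 0.199) for anti-CD3 and 0.49 ± 0.235 (adjusted p = 0.111) for both antibodies, neither past the threshold, and 1.89 (adjusted p = 0.00927) for both antibodies with the GC correction.

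Eomes, on chromosome 9 (118478212 to 118486132, plus strand), encodes the T-box factor of memory and killer programmes. It was at 67.6, 62.4 and 57.7 CPM in WT and 86, 89.3 and 90.2 CPM in KO unstimulated libraries. With anti-CD3 it was at 41.8, 36.4 and 45.7 CPM in WT and 98, 110 and 146 CPM in KO libraries. With both antibodies it was at 40.5 and 38.3 CPM in WT and 82.9, 99 and 134 CPM in KO libraries. The WT libraries were lower after stimulation than before it without overlap, and in each state all KO libraries lay above all WT libraries.

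Eomes was 1.41-fold higher in unstimulated KO cells (log2 fold change 0.5 ± 0.155 (SE), adjusted p = 0.028), 2.86-fold higher with anti-CD3 (log2 fold change 1.52 ± 0.16 (SE), adjusted p = 2.86e-05) and 2.67-fold higher with both antibodies (log2 fold change 1.42 ± 0.18 (SE), adjusted p = 9.73e-04). The unstimulated call was lost with the GC correction, at 0.23 (adjusted p = 0.608), and without KO replicate 2 or any 1 of the 3 WT libraries (adjusted p = 0.0619 to 0.102). The both-antibody call was lost without WT both-antibody replicate 3, at 1.38 (adjusted p = 0.0536). In WT cells Eomes fell with anti-CD3 (log2 fold change -0.6 ± 0.16 (SE), adjusted p = 0.00914) and with both antibodies (log2 fold change -0.67 ± 0.18 (SE), adjusted p = 0.00899). The first of these calls was lost without WT anti-CD3 replicate 2 (adjusted p = 0.0538) and the second without WT both-antibody replicate 3 (adjusted p = 0.0804). In KO cells it rose with anti-CD3 (log2 fold change 0.42 ± 0.15 (SE), adjusted p = 0.0437), a call that 17 of the 27 alternatives ended, among them the GC correction at 0.53 (adjusted p = 0.0716) and the fit without KO anti-CD3 replicate 3 at 0.23 (adjusted p = 0.271). With both antibodies the change in KO cells was 0.25 ± 0.155 (adjusted p = 0.197).

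The response of Eomes to both antibodies differed between the genotypes, by a log2 value of 0.92 ± 0.24 (adjusted p = 0.00746), and by 1.42 (adjusted p = 0.0181) with the GC correction. The difference in the response to anti-CD3, 1.02 ± 0.22 (adjusted p = 0.0919), was of like size but not past the threshold. The share of all genes called for the 2 interactions was 37.5% and 0.0554%, so the thresholds that the adjustment sets were far apart. An antisense gene, Gm33460, shares 118 exon bases with Eomes and held 0 to 22 reads per library. The 5 NK cell markers, cells that also hold Eomes and Tbx21, summed to 7.98 to 11.8 CPM in unstimulated and 3.66 to 7.08 CPM in stimulated libraries. Ncr1 had no read in any stimulated library.

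Bhlhe40, on chromosome 6 (108660629 to 108666925, plus strand), encodes a basic helix-loop-helix repressor that supports mitochondrial metabolism and cytokine output in T cells. It was at 5.67, 6.84 and 9.39 CPM in WT and 5.9, 8.32 and 9.44 CPM in KO unstimulated libraries, which overlapped. Under anti-CD3 the level was 6.03, 8.68 and 7.24 CPM in WT and 14.7, 15.8 and 24.8 CPM in KO libraries. Under both antibodies the level was 8.15 and 9.11 CPM in WT and 10.9, 15.1 and 21.9 CPM in KO libraries. In both stimulated states the KO libraries lay above all WT libraries.

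Bhlhe40 was 2.51-fold higher in KO cells with anti-CD3 (log2 fold change 1.33 ± 0.26 (SE), adjusted p = 0.00295), and 1.35 (adjusted p = 0.00213) with the GC correction. With both antibodies the difference of 0.88 ± 0.3 (adjusted p = 0.0547) was not called by edgeR, whereas DESeq2 gave 0.88 (adjusted p = 0.0174) and limma voom 0.81 (adjusted p = 1.83e-04). Bhlhe40 rose in KO cells with anti-CD3 (log2 fold change 1.23 ± 0.26 (SE), adjusted p = 0.00143) and with both antibodies (log2 fold change 1.01 ± 0.26 (SE), adjusted p = 0.00533), the second call being lost without the 2 libraries of strongest tilt, at 0.75 (adjusted p = 0.0754). In WT cells the changes were 0.028 ± 0.27 (adjusted p = 0.958) and 0.26 ± 0.3 (adjusted p = 0.538). The difference between the responses of the genotypes to anti-CD3 was 1.2 ± 0.37 (adjusted p = 0.199), which was not past the threshold.

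Prdm1, on chromosome 10 (44437177 to 44528501, minus strand), encodes Blimp-1, a transcriptional repressor that drives terminal effector differentiation. Its values ran from 1.76 to 4.99 CPM over all 17 libraries. Its group means ran from 2.31 ± 0.158 CPM (SD, n = 3) in KO cells given anti-CD3 to 3.92 ± 0.934 CPM (SD, n = 3) in unstimulated WT cells, and neighbouring groups in that order overlapped at every step. Prdm1 passed the threshold in none of the 13 comparisons. The lowest adjusted p was that of KO cells given anti-CD3 against unstimulated KO cells (log2 fold change -0.7 ± 0.29 (SE), adjusted p = 0.064), which was -0.75 (adjusted p = 0.0342) with the GC correction. The 95% interval of the KO against WT difference was -0.66 to 0.51 in unstimulated cells, -0.96 to 0.26 with anti-CD3 and -1.02 to 0.34 with both antibodies. Among markers of plasma cells, where Blimp-1 is abundant, Jchain reached at most 12.2 CPM and Sdc1 at most 0.619 CPM. Xbp1 averaged 52.6 CPM in WT and 75.0 CPM in KO cells given anti-CD3.

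The inhibitors of E proteins differed from each other. Id2, on chromosome 12 (25093799 to 25097140, minus strand), was at 82.7, 74.1 and 74.5 CPM in WT and 72.6, 75.6 and 71.6 CPM in KO unstimulated libraries. Anti-CD3 libraries held 31.3, 39.4 and 37.7 CPM in WT and 41.7, 42.8 and 47.8 CPM in KO libraries. Libraries given both antibodies held 35.9 and 40.7 CPM in WT and 39.7, 47.3 and 57 CPM in KO libraries. Every stimulated library lay below every unstimulated one.

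Id2 fell with anti-CD3 in WT (log2 fold change -1.09 ± 0.12 (SE), adjusted p = 3.01e-06) and KO cells (log2 fold change -0.73 ± 0.12 (SE), adjusted p = 1.15e-04), and with both antibodies in WT (log2 fold change -1.01 ± 0.14 (SE), adjusted p = 3.95e-05) and KO cells (log2 fold change -0.61 ± 0.12 (SE), adjusted p = 5.32e-04). The KO against WT difference was -0.073 ± 0.12 (adjusted p = 0.672) in unstimulated cells, 0.29 ± 0.12 (adjusted p = 0.115) with anti-CD3 and 0.32 ± 0.135 (adjusted p = 0.103) with both antibodies. None was called, and with the GC correction the value for anti-CD3 was 0.39 (adjusted p = 0.00313).

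Id3, on chromosome 4 (136143497 to 136145755, plus strand), was at 12.4, 13.8 and 12.9 CPM in WT and 25.8, 32.4 and 19.9 CPM in KO unstimulated libraries, without overlap. With anti-CD3 it was at 11.2, 10.03 and 8.64 CPM in WT and 14, 12.9 and 16.6 CPM in KO libraries. With both antibodies it was at 19.2 and 19.2 CPM in WT and 16.6, 11.3 and 7.27 CPM in KO libraries. The order of the genotypes thus turned, KO libraries being higher in unstimulated cells and with anti-CD3 and lower with both antibodies.

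Id3 was 2.02-fold higher in unstimulated KO cells (log2 fold change 1.01 ± 0.22 (SE), adjusted p = 0.00839), and 0.59 (adjusted p = 0.0112) with the GC correction. That call was lost without KO unstimulated replicate 2, at 0.81 (adjusted p = 0.0608). With anti-CD3 the difference was 0.55 ± 0.22 (adjusted p = 0.103) and with both antibodies -0.71 ± 0.25 (adjusted p = 0.058), neither called. The GC correction added the first as a call, at 0.39 (adjusted p = 0.0461), and gave -0.42 (adjusted p = 0.0632) for the second. In KO cells Id3 fell with anti-CD3 (log2 fold change -0.85 ± 0.22 (SE), adjusted p = 0.00519) and with both antibodies (log2 fold change -1.16 ± 0.22 (SE), adjusted p = 5.03e-04), and these calls held with the GC correction at -0.63 (adjusted p = 4.83e-04) and -0.77 (adjusted p = 8.70e-05). In WT cells the changes were -0.4 ± 0.22 (adjusted p = 0.221) and 0.56 ± 0.24 (adjusted p = 0.0851), the first being called with the correction at -0.42 (adjusted p = 0.0206). The response to both antibodies differed between the genotypes by a log2 value of -1.72 ± 0.33 (adjusted p = 0.00368), and by -1.01 (adjusted p = 0.00423) with the GC correction.

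Runx3, on chromosome 4 (135120652 to 135177990, plus strand), encodes the runt factor that sets the CD8 lineage and opens effector sites. It was at 24.4, 25.8 and 26.4 CPM in WT and 32.1, 33.7 and 30.3 CPM in KO unstimulated libraries. Under anti-CD3 the level was 28, 19.8 and 23.8 CPM in WT and 28.3, 26.2 and 25 CPM in KO libraries. Under both antibodies the level was 36.7 and 37 CPM in WT and 33, 24.6 and 18.5 CPM in KO libraries. The KO libraries given both antibodies spread widely and all lay below the 2 WT libraries.

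Runx3 was lower in KO cells given both antibodies (log2 fold change -0.54 ± 0.17 (SE), adjusted p = 0.0447) and rose in WT cells given both antibodies (log2 fold change 0.53 ± 0.17 (SE), adjusted p = 0.0258). With the GC correction both calls were lost, at -0.21 (adjusted p = 0.196) and 0.18 (adjusted p = 0.224), and the first was also lost without KO both-antibody replicate 2 or 3 (adjusted p = 0.112 and 0.164), without WT both-antibody replicate 2 or 3 (0.184 and 0.195), or without any 1 of 8 libraries of other groups (0.0516 to 0.0588). The second was lost without either WT both-antibody library (0.118 each) or without WT unstimulated replicate 1 or 2 (0.0855 and 0.054). In unstimulated cells the KO against WT difference was 0.33 ± 0.16 (adjusted p = 0.124) and with anti-CD3 0.16 ± 0.16 (adjusted p = 0.543). The 2 WT libraries given both antibodies had GC tilts of 0.56 and 0.52, and the 3 KO ones 0.35, -0.33 and -1.15. Runx3 at 33.0, 24.6 and 18.5 CPM, and Id3 at 16.6, 11.3 and 7.27 CPM, followed the order of these 3 tilts, as did Batf (56.6% GC) and Prdm1 (46.3% GC). Irf4, Eomes, Bhlhe40, Id2 and Tbx21 followed the reverse order. Tbx21 has the highest GC content of the 10, and that of Prdm1 is below the median of all genes. Each order rests on 3 libraries, and Tbx21 was nearly level between KO replicates 2 and 3 (40.03 and 40.08 CPM). The cause of these orders was not tested.

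**Figure D4:**
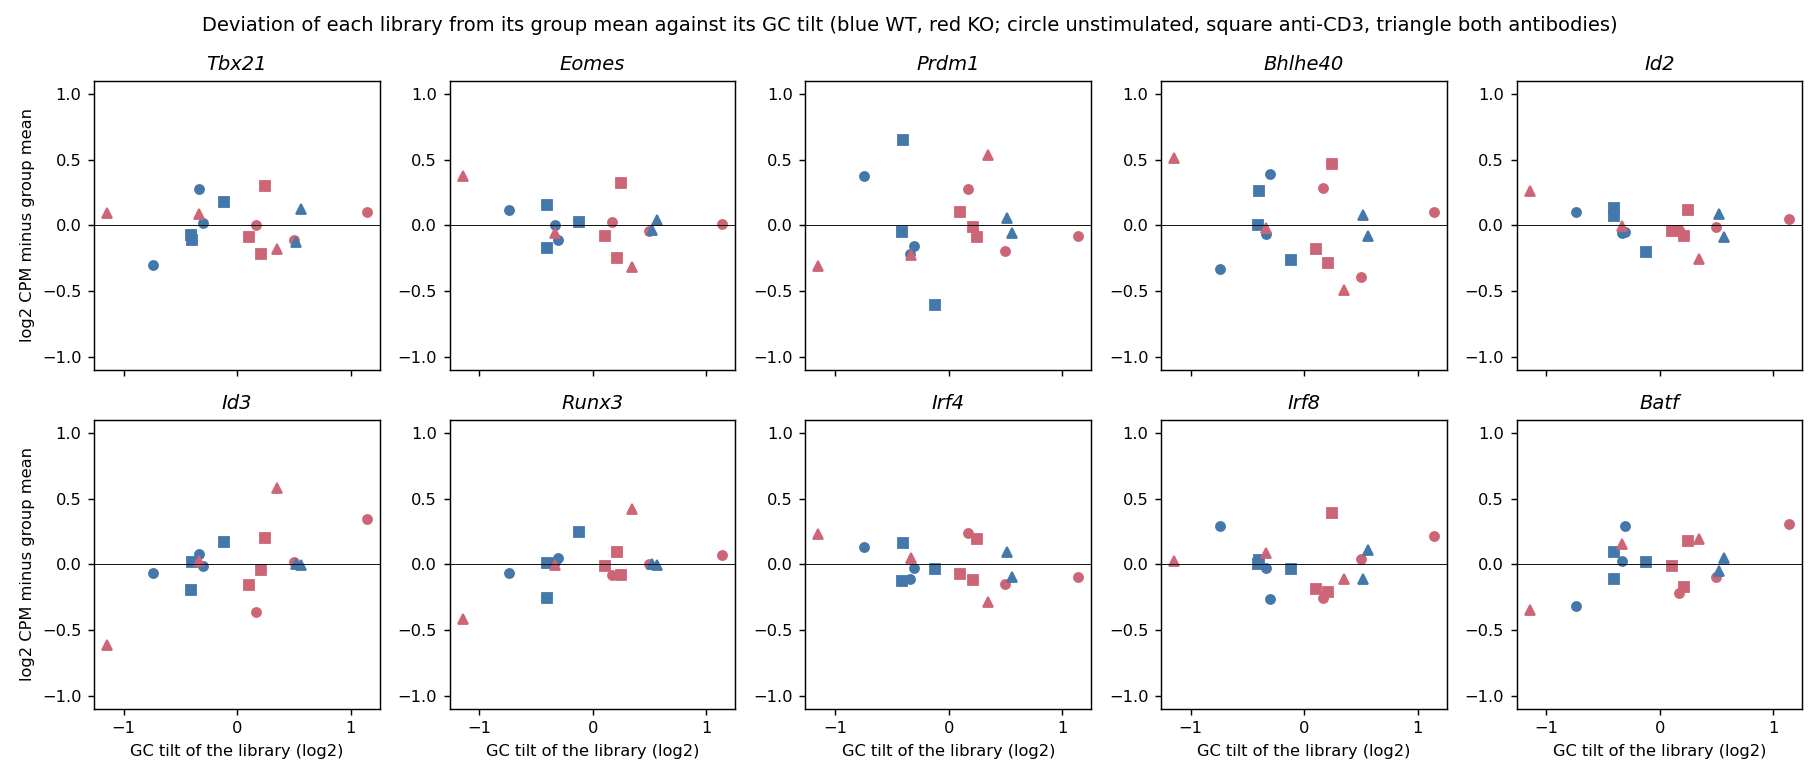
Log2 CPM of each library minus the mean of its group (vertical axis) against the GC tilt of the library (horizontal axis), for each member. In KO both-antibody libraries (red triangles) Id3 and Runx3 are lowest at the tilt of -1.15, while Eomes, Bhlhe40, Id2 and Irf4 are highest there.

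The response to both antibodies was compared between the genotypes by an interaction, in which the log2 response was more positive in KO cells for 2 members (Eomes and Irf4) and more negative for 3 (Id3, Runx3 and Batf), against 37.5% of all genes called, 18.3% higher and 19.2% lower. The Irf4 difference was 0.57 ± 0.21 (adjusted p = 0.0425), that of Runx3 -0.87 ± 0.23 (adjusted p = 0.00926) and that of Batf -0.89 ± 0.265 (adjusted p = 0.0154). With the GC correction these were 0.33 (adjusted p = 0.215), -0.11 (adjusted p = 0.684) and 0.01 (adjusted p = 0.982), so that of the 5 calls those of Eomes and Id3 held and that of Tbx21 was gained. For the response to anti-CD3 none of the 10 members passed edgeR's threshold, where 0.0554% of all genes did, 0.0492% higher and 0.00616% lower. At an unadjusted p under 0.05 there were 5 members, where 14.8% of all genes were. DESeq2 called 1 member and 1.33% of all genes, and limma voom 3 members and 5.65%.

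Between anti-CD3 with and without anti-CD28, none of the 10 members passed the threshold of edgeR's quasi-likelihood test in WT or in KO cells, and 0.0% of all genes were called in either genotype. At an unadjusted p under 0.05 there were 2 members in WT cells, where 21.6% of all genes were: Id3 (log2 fold change 0.95 ± 0.24 (SE), adjusted p = 0.138) and Runx3 (log2 fold change 0.63 ± 0.17 (SE), adjusted p = 0.138). In KO cells there was 1, Irf8 (log2 fold change -0.37 ± 0.15 (SE), adjusted p = 0.547), where 8.99% of all genes were. DESeq2 called 2 members in WT and 0 in KO cells, with 3% and 0% of all genes. Limma voom called 4 and 1, with 37.3% and 34.2% of all genes. The 95% interval of the anti-CD28 difference was -0.44 to 0.31 in WT and -0.49 to 0.16 in KO cells for Eomes, and -0.35 to 0.39 and -0.51 to 0.13 for Tbx21. For the difference between the genotypes in the effect of anti-CD28, edgeR called none of the 10 and 0.00616% of all genes. There 4 members had an unadjusted p under 0.05, as had 28.6% of all genes. DESeq2 called 2 members and 14.6% of all genes, and limma voom 4 members and 47.3%.

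KO cells given anti-CD3 alone were also set against WT cells given both antibodies, which shows how KO cells without costimulation stood against costimulated WT cells. Tbx21, Eomes, Bhlhe40, Irf4 and Irf8 were higher in the KO cells, so 5 of the 10 members were called and none was lower, against 11.5% of all genes, 8.96% higher and 2.55% lower. The differences were 1.31 ± 0.18 (adjusted p = 3.90e-04) for Tbx21, 1.58 ± 0.18 (adjusted p = 1.58e-04) for Eomes and 1.54 ± 0.18 (adjusted p = 1.58e-04) for Irf8. They were 0.85 ± 0.15 (adjusted p = 0.00195) for Irf4 and 1.1 ± 0.3 (adjusted p = 0.025) for Bhlhe40. All 5 calls held with the GC correction, which added Runx3 at -0.34 (adjusted p = 0.0294). The Bhlhe40 call was lost without KO anti-CD3 replicate 3 (adjusted p = 0.145) or either WT both-antibody library (0.147 and 0.221), and the Irf4 call without WT both-antibody replicate 2 (0.069).

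**Figure D5:**
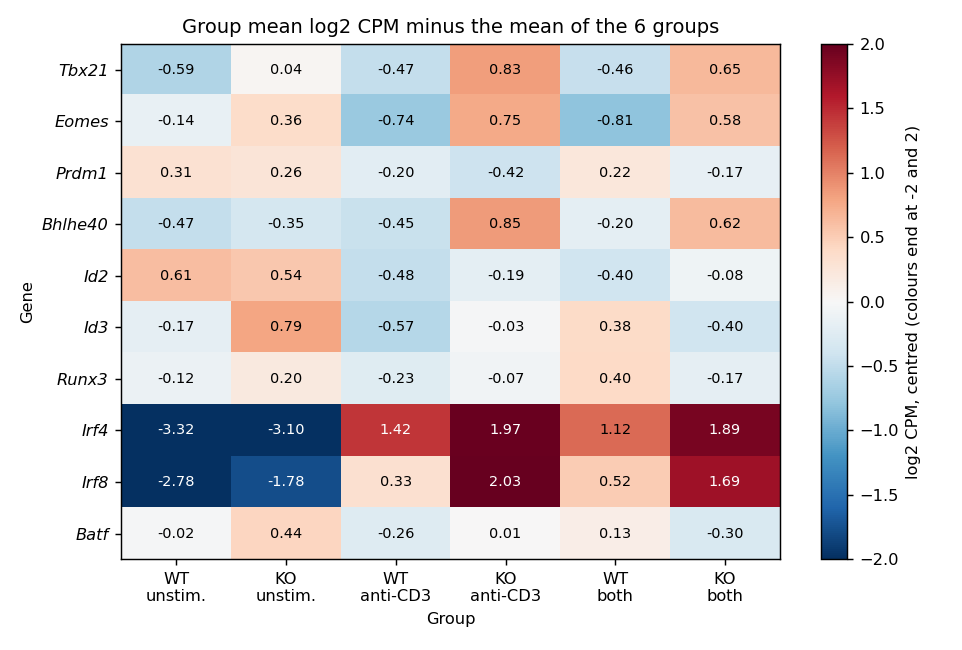
Group mean log2 CPM of each member minus its mean over the 6 groups, WT and KO cells unstimulated, given anti-CD3 and given both antibodies. Irf4 and Irf8 run from -3.32 to 1.97 and from -2.78 to 2.03, and Tbx21, Eomes and Bhlhe40 are highest in the 2 stimulated KO groups.

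The patterns over the 6 group means were compared by the root mean square difference of centred log2 CPM, a description without a test. The closest pairs of members were Runx3 with Batf (0.166), Tbx21 with Bhlhe40 (0.20), Id3 with Batf (0.232) and Prdm1 with Runx3 (0.24), and Tbx21 stood at 0.293 from Eomes. Irf4 and Irf8, which spanned 5.29 and 4.81 log2 units, differed by 0.78. Among 9213 protein-coding genes searched, those nearest to Irf8 were Zbtb32 (0.199), Hk2 (0.249) and Rasgef1b (0.257), and those nearest to Irf4 were Rgs16 (0.191), Bcat1 (0.25) and Chst2 (0.29). Nearest to Eomes were Top2a (0.136), Rrm2 (0.137) and Car12 (0.183), and nearest to Tbx21 were Dctd (0.126), Ift57 (0.155) and Akap1 (0.168). Nearest to Bhlhe40 were Srp54b (0.118), Gar1 (0.124) and Setbp1 (0.141). For Id2 they were Myo6 (0.069), Tnfaip8 (0.077) and Crybg1 (0.083), and for Id3 Mpst (0.067), Ptpn18 (0.067) and Man2b2 (0.069). Prdm1, Runx3 and Batf spanned less than 1 log2 unit and were not searched.

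Genes known as targets of T-bet, Eomes and RUNX3 were read beside the factors, from a list of 20, all of them tested. In KO against WT cells 6 were higher and 0 lower when unstimulated, 11 higher and 1 lower with anti-CD3, and 8 higher and 1 lower with both antibodies. Over all genes 25.4%, 15.3% and 16.1% were called in these states. The list's median log2 difference was 0.19, 0.62 and 0.47, and that of all genes -0.011, 0.037 and 0.000. Ifng, the cytokine gene of the study, went from 90.2 to 446 CPM (log2 fold change 2.31, adjusted p = 3.13e-04) with anti-CD3 between WT and KO cells. With both antibodies it went from 64.1 to 470 CPM (log2 fold change 2.88, adjusted p = 0.00165). The chemokine gene Ccl4 went from 175 to 479 CPM (log2 fold change 1.45, adjusted p = 1.38e-05) and Ccl3 from 168 to 591 CPM (log2 fold change 1.82, adjusted p = 1.48e-04) with anti-CD3. Nkg7, a granule membrane protein, went from 52.1 to 106 CPM (log2 fold change 1.03, adjusted p = 1.67e-04). The integrin gene Itgae went from 55 to 34 CPM (log2 fold change -0.7, adjusted p = 0.016) with both antibodies. With the GC correction the counts were 5 higher and 0 lower, 12 and 2, and 10 and 1. Calls over all genes in unstimulated cells fell with the correction, from 4134 to 1145. The corrected share of all genes in stimulated cells is not given here. The corrected counts of the list in stimulated cells are thus not read as a result about it.

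Other regulators of effector and memory fate formed a list of 16, of which 15 were tested. Not all of them oppose effector fate or mark memory cells, so the counts mix genes of different roles. Zeb2 and Stat4, which do not, were among the calls of KO against WT cells with anti-CD3. Their log2 fold changes were 0.885 (adjusted p = 0.0336) and -0.315 (adjusted p = 0.00927). In KO against WT cells 2 were higher and 1 lower when unstimulated, 2 and 3 with anti-CD3, and 2 and 4 with both antibodies, with medians of -0.022, -0.19 and -0.21. The 3, 5 and 6 called of 15 stand against 25.4%, 15.3% and 16.1% of all genes, whose medians were -0.011, 0.037 and 0.000. Zbtb32, a repressor that restrains lymphocyte responses, went from 5.72 to 18 CPM (log2 fold change 1.67, adjusted p = 1.77e-04) with anti-CD3 between WT and KO cells. Bcl6, which opposes Blimp-1, went from 32.9 to 19.2 CPM (log2 fold change -0.78, adjusted p = 0.00243). With both antibodies Lef1 went from 432 to 312 CPM (log2 fold change -0.47, adjusted p = 0.00861) and Klf2, a quiescence factor, from 250 to 137 CPM (log2 fold change -0.87, adjusted p = 0.00259). The Klf2 value became -0.074 with the GC correction (adjusted p = 0.814). The corrected counts for the list were 0 higher and 1 lower, 2 and 4, and 1 and 5, where calls over all genes in unstimulated cells went from 4134 to 1145. As the corrected share of all genes in stimulated cells is not given, the corrected counts there are not read as a result.

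Family members and partners of the 10 factors formed a list of 27, of which 20 were tested. In KO against WT cells 8 were higher and 2 lower when unstimulated, 4 and 1 with anti-CD3, and 1 and 2 with both antibodies, with medians of 0.44, 0.28 and -0.45. The 10, 5 and 3 called of 20 stand against the same 25.4%, 15.3% and 16.1% of all genes. With the GC correction these became 1 and 0, 5 and 2, and 0 and 6, so most of the unstimulated calls were lost. Calls over all genes in unstimulated cells also fell with the correction, from 4134 to 1145. For stimulated cells the corrected share of all genes is not given, so the corrected counts there are not read as a result. Irf1, the relative known as a target of interferon signalling, went from 266 to 374 CPM (log2 fold change 0.49, adjusted p = 0.00837) in unstimulated cells and kept its call with the correction (log2 fold change 0.30, adjusted p = 0.0302). Tcf3, which encodes an E protein that ID proteins bind, went from 17.6 to 40.5 CPM (log2 fold change 1.21, adjusted p = 0.0094) and did not keep it (0.36, adjusted p = 0.0674). With anti-CD3 the interferon factor gene Irf9 went from 189 to 140 CPM (log2 fold change -0.44, adjusted p = 0.0156). Between unstimulated WT cells and those given anti-CD3, Irf1 went from 266 to 660 CPM (log2 fold change 1.31, adjusted p = 1.11e-07). Jun, the AP-1 partner of BATF, went from 170 to 46.6 CPM (log2 fold change -1.87, adjusted p = 4.93e-07).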

How the data were processed

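Per the labels' protocols, libraries were stranded and made from total RNA depleted of ribosomal RNA. For every library the authors deposited a table of counts per gene, all whole numbers. Per the submitters' processing notes, STAR 2.5.2, RSEM 1.3.0 and genome build GRCm38 (mm10) were used. The annotation release, rounding and strand setting: not given in the sources used here. Reads of overlapping genes may thus be divided between them. Symbols, positions and GC content came from GENCODE M21, and promoter sequences from RefSeq.

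The unaltered counts entered edgeR 4.0.16, run in R 4.3.3 (filterByExpr, TMM, robust quasi-likelihood, 1 coefficient per group over all 17 libraries, 13 comparisons, Benjamini-Hochberg within a comparison, threshold 0.05). The common biological coefficient of variation was 0.153. Fits were tested on simulated data. The members, lists and tests were chosen with earlier results of these data known. Up to 4 genes per list, direction and comparison could be named, by smallest adjusted p, and 3 nearest genes per member. Alternatives were RLE scaling, DESeq2 1.42.0, limma 3.58.1 voom with quality weights, other filters, fewer groups or libraries, the replicate number as a block and a GC correction (loess, span 0.3). Counts of the lists under the correction were added after seeing the data. The 17 samples held no replicate 1 of WT cells given both antibodies, and all 17 were analysed.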

Additional observations from a re-analysis of the deposited data

Results flagged for a closer look

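For 5 members the response to both antibodies differed between the genotypes, by a test of the difference itself (edgeR's interaction term, KO response minus WT response on the log2 scale, 17 libraries in the fit). Of all genes, 37.5% were called in this test. The difference was 0.919 for Eomes (adjusted p = 0.00746), where WT cells changed by -0.67 and KO cells by 0.25. For Id3 it was -1.717 (adjusted p = 0.00368), from 0.56 in WT and -1.16 in KO cells. For Runx3 it was -0.867 (adjusted p = 0.00926), from 0.53 and -0.34. For Batf it was -0.887 (adjusted p = 0.0154), from 0.14 and -0.75. For Irf4 it was 0.569 (adjusted p = 0.0425), from 4.45 and 5.02. The 2 libraries of strongest GC tilt, KO unstimulated replicate 2 and KO both-antibody replicate 3, have tilts of opposite sign and stand on the 2 sides of the KO response. Without both, the Irf4 value was 0.38 (adjusted p = 0.203) and the Batf value -0.56 (adjusted p = 0.0854), and the Eomes, Id3 and Runx3 calls held. The Eomes and Id3 calls also held with the GC correction, while Runx3 was -0.11 (adjusted p = 0.684), Batf 0.01 (adjusted p = 0.982) and Irf4 0.33 (adjusted p = 0.215).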

How the results depend on the processing

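Over 27 alternatives and 13 comparisons, 3183 of 3509 values of the members kept their direction and side of the threshold, 89 lost and 138 gained a call, and 5 reversed. The other 94 changed sign but were past no threshold in either fit, and 1 further value could not be had. The reversed values were Tbx21 in unstimulated KO against WT cells (-0.074 with the GC correction, -0.087 with the replicate block and GC correction), Batf in WT cells given both antibodies against unstimulated (-0.343 with the block and correction, adjusted p = 0.0401) and Batf in the interaction by both antibodies (0.01 and 0.077). The cause of these changes was not tested.

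Counts of members called are not read as results about the members where no figure for all genes is given, here or below. Voom called 36.5% of all genes for anti-CD3 KO cells against both-antibody WT cells, and 51.9% for the interaction by both antibodies. The member counts moved as follows. For KO against WT, unstimulated (4), they were 2 with the GC correction, 2 with the block and correction, and 1 to 6 when each library was left out (1 without KO unstimulated replicate 2). With anti-CD3 (5), voom gave 8. With both antibodies (5), voom gave 10, a fit of only the groups compared 0, and leaving out libraries 0 to 8 (0 without WT both-antibody replicate 3, 3 without replicate 2, 8 without KO both-antibody replicate 1). For both antibodies against unstimulated WT (5), leaving out libraries gave 3 to 6. For anti-CD28 added in WT cells (0), DESeq2 gave 2, voom 4, the fit without the 2 tilted libraries 2, only the groups compared 4, and leaving out libraries 0 to 2, and in KO cells (0) voom gave 1. For anti-CD3 KO cells against both-antibody WT cells (5), voom gave 8, only the groups compared 8, and leaving out libraries 3 to 6. For the interaction by anti-CD3 (0), DESeq2 gave 1, voom 3, no filter 1, without the tilted libraries 1, only the groups compared 1, block with correction 2, and leaving out libraries 0 to 1. For that by both antibodies (5), the GC correction gave 3, voom 8, without the tilted libraries 3, and leaving out libraries 3 to 7. For that by anti-CD28 (0), DESeq2 gave 2, voom 4, without the tilted libraries 1, and leaving out libraries 0 to 3.

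Counts over all genes moved by more than 1.5 times in places. The GC correction gave 1145 instead of 4134 for KO against WT, unstimulated, 2446 instead of 6089 for the interaction by both antibodies, 3326 instead of 1870 for anti-CD3 KO cells against both-antibody WT cells, 390 instead of 9 for the interaction by anti-CD3 and 43 instead of 1 for that by anti-CD28, and with the block added 1098, 2821, 3667, 602 and 31. Only the groups compared gave 5262 instead of 2492 and 0 instead of 2621 for KO against WT with anti-CD3 and both antibodies, where voom gave 5742 and 9370 and the fit without the tilted libraries 4229 and 1526. For anti-CD28 added in WT cells (0), DESeq2 gave 488, voom 6058, the fit without the tilted libraries 2932, only the groups compared 4780, no filter 24, the GC correction 5 and block with correction 15, and in KO cells (0) voom gave 5550. DESeq2 gave 216 and 2380, voom 918 and 7681, and no filter 63 and 326, for the interactions by anti-CD3 (9) and by anti-CD28 (1). Without 1 library, KO against WT gave 348 to 5465, 853 to 3528 and 11 to 5647 in the 3 states, the lowest without KO unstimulated replicate 2, KO anti-CD3 replicate 3 and WT both-antibody replicate 3.

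Same-numbered libraries of different groups did not deviate together (correlations -0.542 to 0.71, median 0.028, 14 of 40 above 0.1), so the numbers were not taken as pairs. With the replicate block, 7 members were called for KO against WT with both antibodies, and 4 and 5 in the other states. The share of all genes called with the block alone is not given here, so these counts are not read as a result about the members. With both antibodies the block added Bhlhe40, at 1.02 (adjusted p = 0.00321), and Id3, at -0.8 (adjusted p = 0.0348). Depth limits members at a few CPM, such as Prdm1 (1.76 to 4.99 CPM) and Irf8 in unstimulated WT cells (3.51 to 5.15 CPM). Where a fit leaves 1 WT both-antibody library, that library is assumed to vary like the other groups.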
